A study of Rattus norvegicus with 11 samples.

Results

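Cytosolic ribosomal proteins were followed here in REF52 cells, an established line of rat embryo fibroblasts, through the signals of 43 genes on an expression array. The genes were taken by name: a probe set had to carry a single gene symbol in the platform's annotation, starting with Rpl or Rps and a digit or being Rplp0, Rplp1 or Rplp2, and symbols starting with Rps6k, the S6 kinases, were left out. Of 47 such probe sets, the brightest of each gene was kept, which gave 43 genes among the 10411 genes and 15866 probe sets tested. They comprise 27 proteins of the large subunit, 11 of the small subunit, the stalk protein Rplp0 and 4 paralogs or related proteins (Rpl3l, Rpl7l1, Rps27l and Rps4y2). A further 28 ribosomal protein probe sets name several genes or pseudogenes at once, Rps14, Rps19 and Rpl22l1 among them, and were set aside except in a repeat described at the end.

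The cells had been grown in 10% serum and held in 0.25% serum for 48 h before they were infected with an adenovirus that expresses E2F1 or with a control adenovirus, named CMV in the labels. After infection they received deprivation medium, serum, or serum with LY294002, an inhibitor of phosphoinositide 3-kinase (PI3K). The 11 arrays fall into 6 groups: E2F1 virus in deprivation medium, in serum and in serum with LY294002, with 2 arrays each, and control virus in serum and in serum with LY294002, with 2 arrays each, and in deprivation medium, with 1 array. All groups share the cell line, the serum starvation and an adenoviral infection, no uninfected cells are among them, and separate cultures are nowhere stated in the labels; p-values therefore reflect variation between arrays that may be technical. E2f1 is not the sole symbol of any annotated probe set, and the transgene itself was not read.

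Ribosomal proteins assemble with ribosomal RNA into the small subunit, which decodes the messenger RNA, and the large subunit, which joins the amino acids. Their messenger RNAs are among the most abundant of any growing cell. Most start with a C followed by a run of pyrimidines, the 5′ terminal oligopyrimidine (TOP) tract, through which growth signals by way of PI3K and mTOR adjust their translation and stability. E2F1 is a transcription factor that drives genes of DNA replication and, in other settings, of cell death. The question the design poses is how the E2F1 programme looks with and without PI3K signalling, and here it is asked of the genes for ribosomal proteins.

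The sequence that ties these genes to growth signalling lies around the start of transcription. The 8 examples shown span genes with a long run of pyrimidines near the annotated start and genes without one. Each runs from 10 bases before the annotated start to 20 bases from it, on the gene's own strand, from RefSeq on build GRCr8, and capitals mark the longest run of C and T where it reaches 5 bases.
Rplp0 (chr12:46718371-46718400, minus strand): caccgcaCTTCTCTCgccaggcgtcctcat
Rps23 (chr2:23814507-23814536, plus strand): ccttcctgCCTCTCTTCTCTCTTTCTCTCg
Rpl22 (chr5:168117951-168117980, plus strand): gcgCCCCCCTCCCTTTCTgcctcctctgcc
Rpl35 (chr3:43165902-43165931, minus strand): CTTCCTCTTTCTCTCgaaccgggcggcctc
Rpl23 (chr10:83272165-83272194, minus strand): CTTCCTTTCTgactctttccggacgctcaa
Rpl5 (chr14:1995206-1995235, minus strand): CTTTCCCacgtcgcttgcgtcctggaggtg
Rpl11 (chr5:153560783-153560812, minus strand): cttgaagcttgtttggtgctggggagcatc
Rps27l (chr8:76443648-76443677, plus strand): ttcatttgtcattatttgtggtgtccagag
The longest run here, in Rps23, is 21 bases, while Rpl11 and Rps27l have no run of 5 in this window.

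RefSeq promoters of 300 bases were matched for 36 of the 43 genes by gene ID. In 10 of the 36 (27.8%) the annotated start was a C followed by 4 pyrimidines, against 2.63% of all 27457 promoters. A run of 8 pyrimidines within 20 bases of the start was present in 23 (63.9%), against 15.55% of all. The letters TTTGGCGC or TTTCGCGC, forms of the E2F motif, were searched on both strands and found in 0 of the 36 and in 0.84% of all promoters. Other forms of that motif were not searched, and at so low a share 0 of 36 does not show that E2F sites are lacking. CACGTG was in 3 (8.3%, all promoters 6.65%) and CCGGAAG, letters bound by Ets factors, in 9 (25.0%, all promoters 9.22%), also on both strands. These are matches of letters in a fixed window around annotated starts, not measured sites.

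The signals of these genes were high in every group. Of the 43 genes, 38 had a signal above 1000 on each of the 11 arrays, against a trimmed mean of 500 that the deposited values share on every array. The brightest was Rps23, a protein of the decoding centre, with a median signal of 15994. Rpl3l, which in muscle takes the place of Rpl3, and Rps4y2 had medians of 10.7 and 11.3, close to the offset of 16 added before taking log2, so their differences are not well measured. Rpl30, with a median of 112, is read by a dim probe set. A brighter probe set that names Rpl30 and related genes was among those set aside (mean log2 13.13, against 6.86). Rpl39, which lines the exit tunnel of the large subunit, had a median of 432 and Rps27l, a relative of Rps27 that p53 induces in human cells, one of 694. Signals of different probe sets do not rank the genes' messenger RNA levels.

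Together the 43 probe sets made up between 2.73% and 3.61% of the summed signal on 9 arrays, and 5.01% and 5.02% on the other two, which are the second LY294002 array of the E2F1 cells and the second LY294002 array of the control virus cells. Of the 43 genes, 38 had their highest signal on one of these, as did 22.9% of all probe sets. The first deprived E2F1 array held the lowest signal of 31 genes, and of 10.5% of all probe sets. Across the 11 arrays the SD of log2(signal + 16) ran from 0.22 in Rpl27a to 0.52 in Rpl12, which sits at the base of the stalk. The exceptions to the common course were dim or related genes: Rpl39, Rps27l, Rpl30, Rps4y2 and Rpl7l1, the last a nucleolar relative of Rpl7, peaked elsewhere. The second probe set of Rpl7l1, which was not the one kept, was highest on the second control virus LY294002 array, at 1069.

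**Figure D1:**
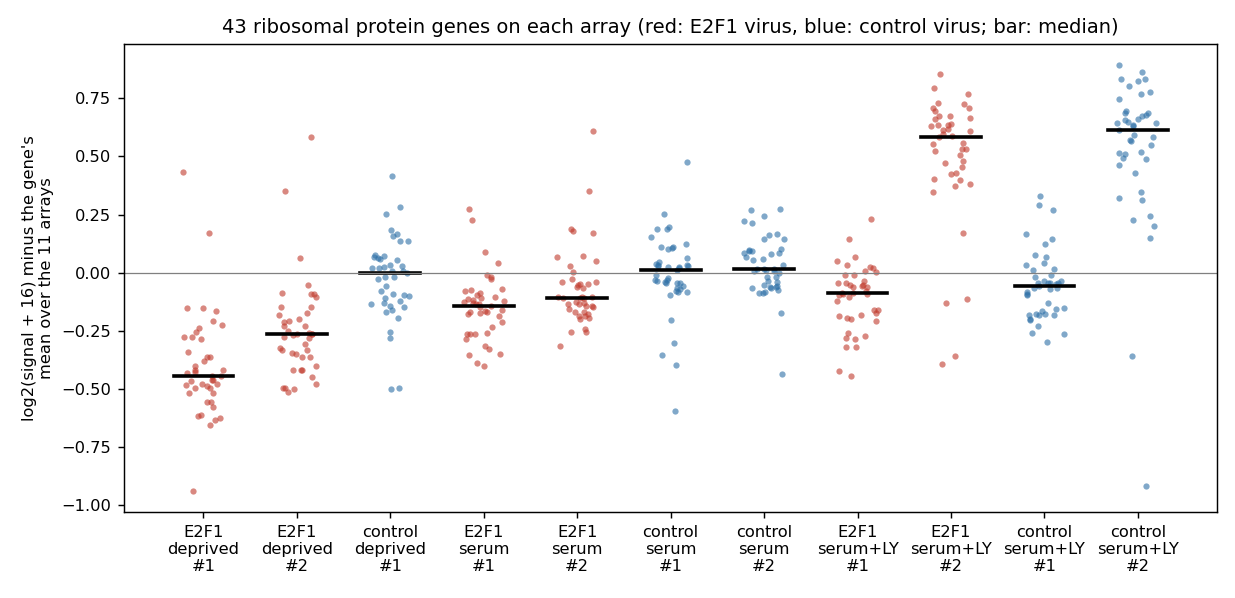
Each point is 1 of the 43 ribosomal protein genes, as log2(signal + 16) minus that gene's mean over the 11 arrays, and bars are medians; red is the E2F1 virus, blue the control virus. The second LY294002 array of each virus stands above the other 9 arrays, and the first deprived E2F1 array lies lowest.

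**Figure D2:**
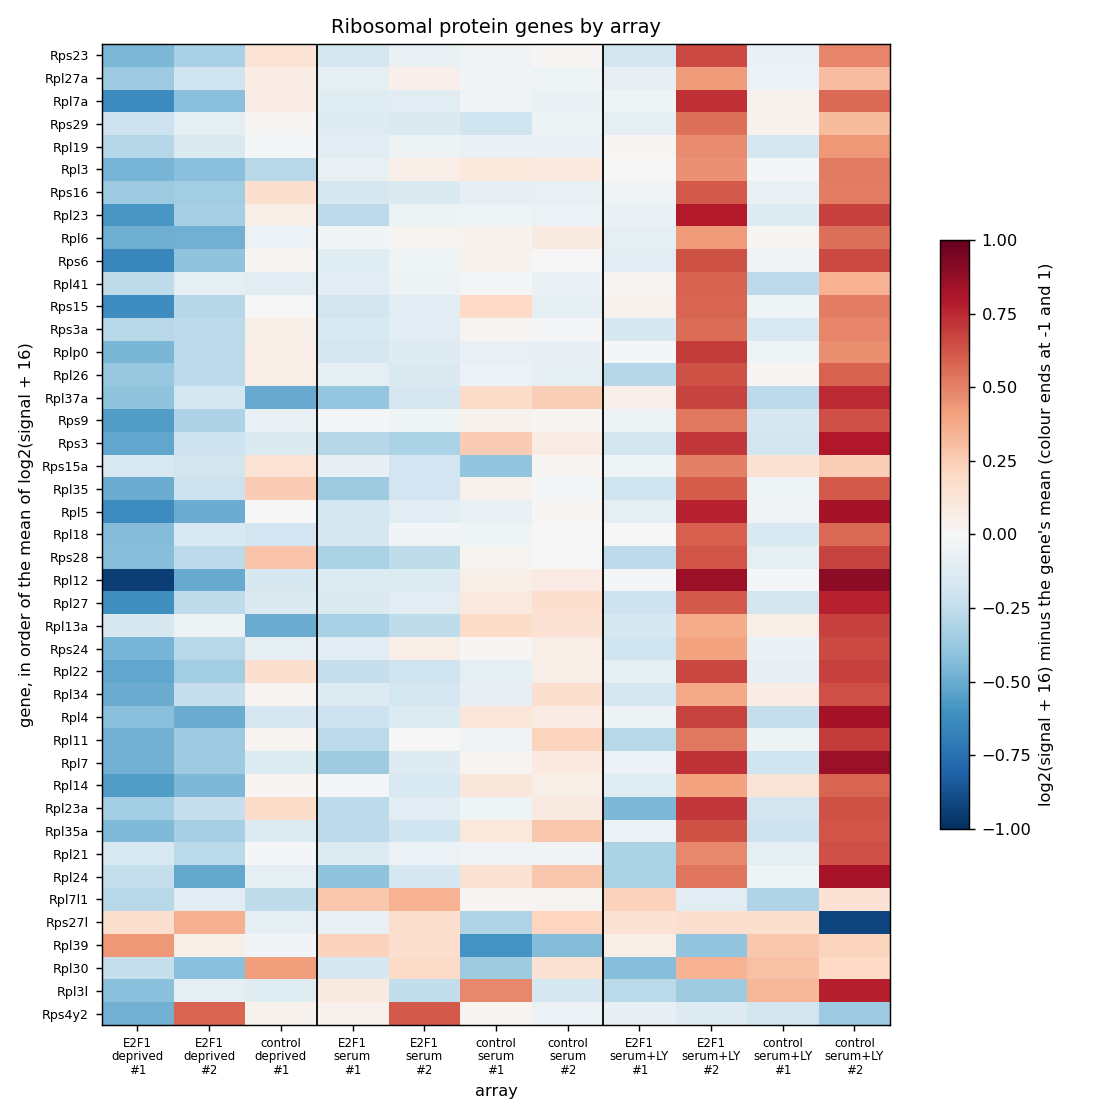
Rows are the 43 genes from the brightest to the dimmest, columns the 11 arrays, and colour is log2(signal + 16) minus the gene's mean. Nearly all bright genes share 1 pattern over the arrays, and the dim genes at the bottom do not.

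Whether E2F1 changed ribosomal protein messenger RNAs was tested with limma across all probe sets, with p-values adjusted by the Benjamini-Hochberg method over all 15866. Averaged over the 3 media, 38 genes were lower and 5 higher in E2F1 cells than in control virus cells, with a median log2 change of -0.19, against -0.04 for all probe sets. The median was -0.31 without the second E2F1 LY294002 array, -0.06 without the second control virus LY294002 array and -0.11 after quantile normalization. None of the 43 passed the adjusted threshold of 0.05, although 16.5% of all probe sets did. At an unadjusted p under 0.05 there was 1 gene, the dim Rpl3l (log2 change -0.41 ± 0.17 SE, adjusted p = 0.145), against 30.8% of all probe sets. No gene had all its E2F1 arrays above or all below the control virus arrays, where 6.05% of all probe sets were higher and 3.59% lower throughout.

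Rplp0, the protein that anchors the stalk and is often used as a loading control, had 7797 and 8966 in deprived E2F1 cells, against 11233 in deprived control virus cells. In serum it had 9560 and 9815 in E2F1 cells, against 10216 and 10119 in control virus cells. With LY294002 it had 10652 and 17391 in E2F1 cells, against 10409 and 14808 in control virus cells. It was lower on each E2F1 array than on the control virus arrays in deprivation medium and serum, and overlapped with LY294002, and its average change of -0.12 (95% interval -0.51 to 0.26) did not pass the test (adjusted p = 0.689).

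Rps6, the small subunit protein that S6 kinases phosphorylate, had 7499 and 8943 in deprived E2F1 cells, against 12006 in deprived control virus cells. In serum it had 10867 and 11486 in E2F1 cells, against 12078 and 11856 in control virus cells. With LY294002 it had 10974 and 18370 in E2F1 cells, against 11507 and 18636 in control virus cells. E2F1 arrays lay below control virus arrays in the first pair of media, and the average change was -0.23 (95% interval -0.67 to 0.20, adjusted p = 0.466). Rpl5 and Rpl11, which with the 5S ribosomal RNA can bind Mdm2 and stabilise p53, averaged -0.24 (95% interval -0.74 to 0.25) and -0.29 (95% interval -0.76 to 0.18), with adjusted p = 0.503 and 0.391 by limma. Rpl23, another Mdm2-binding protein of the large subunit, averaged -0.18 (95% interval -0.67 to 0.31). Rps27l had the largest positive average change, 0.33 ± 0.21 SE (adjusted p = 0.355).

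In serum alone, 36 of the 43 genes were lower in E2F1 cells, with a median change of -0.11, against 0.06 for all probe sets. The median was -0.06 without the first E2F1 array in serum, -0.20 with arrays centred on their medians and -0.07 after quantile normalization. By limma 0 passed the adjusted threshold, where 0.353% of all probe sets did, and 1 passed an unadjusted p under 0.05 (all probe sets 15.5%). In a limma fit of these groups alone, 6 of the 43 passed unadjusted and 0 adjusted, with the unadjusted share of all probe sets not counted. Both E2F1 arrays were below both control virus arrays in 27 genes and above in 3, compared with 23.4% and 31.5% of all probe sets. The gene that passed unadjusted in the fit of all arrays was Rpl39. It had 485 and 466 in E2F1 cells, against 267 and 300 in control virus cells. The arrays did not overlap, and the log2 change of 0.72 ± 0.21 SE had an adjusted p = 0.170.

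In deprivation medium 37 genes were lower in E2F1 cells than on the single control virus array, with a median of -0.33, against -0.14 for all probe sets. The median was -0.04, with 15 genes above 0, when the 3′ to 5′ ratio of control probe sets was a covariate, and -0.18, with 11 above 0, after quantile normalization. The covariate's slope rests mostly on the E2F1 LY294002 pair, as given below. None passed by limma (all probe sets 2.87%), and 0 passed an unadjusted p under 0.05 (all probe sets 20.8%). The control virus array has no replicate, and its spread was taken to be that of the other groups, the LY294002 pairs included. The dim probe set of Rpl30 was lowest, with 83.3 and 70.9 in E2F1 cells, against 139 in control virus cells, a change of -0.74 ± 0.36 SE (adjusted p = 0.288). Rpl13a, a large subunit protein, went the other way in value, with 7517 and 8110 in E2F1 cells, against 5971 in control virus cells.

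With LY294002, 22 genes were lower and 21 higher in E2F1 cells, with a median of -0.02, against -0.04 for all probe sets. By limma 0 passed (all probe sets 5.41%), and at an unadjusted p under 0.05 there was 1, Rpl3l at -0.87 (adjusted p = 0.112, all probe sets 21.5%). This balance rests on single arrays: the median was -0.39 without the first control virus LY294002 array, -0.37 without the second E2F1 LY294002 array and 0.34 without the first one.

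LY294002 itself was compared with serum alone within each virus. In E2F1 cells 38 of 43 genes were higher with the inhibitor, with a median log2 change of 0.36, against -0.05 for all probe sets. In control virus cells 40 were higher, with a median of 0.23, against 0.02. No gene passed the adjusted threshold by limma in either virus, and neither did any other probe set (0%). At an unadjusted p under 0.05 there were 0 genes in E2F1 cells (all probe sets 11.1%) and 1 in control virus cells (all probe sets 6.62%). Both inhibitor arrays were above both serum arrays for 18 genes and below for 4 in E2F1 cells (all probe sets 19.0% and 24.6%), and for 9 and 1 in control virus cells (all probe sets 20.5% and 17.0%).

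Rpl37a, a zinc-binding protein of the large subunit, had 10739 and 16582 in E2F1 cells with LY294002, against 7921 and 9233 without it. In control virus cells it had 8671 and 17450 with LY294002, against 11818 and 12305 without. The inhibitor arrays lay above the serum arrays in E2F1 cells and on either side of them in control virus cells. The changes were 0.64 ± 0.34 SE (adjusted p = 0.495) and 0.03 ± 0.34 SE (adjusted p = 0.992). Rpl39 gave 0.76 ± 0.21 SE in control virus cells, with 499 and 484 with LY294002, against 267 and 300 without (adjusted p = 0.685). In E2F1 cells it had 432 and 310 with LY294002, against 485 and 466 without. The difference between the inhibitor's effects, E2F1 cells minus control virus cells, was -1.12 ± 0.30 SE for this gene (unadjusted p = 0.00562, adjusted p = 0.716). Over the 43 genes that difference had a median of 0.13, against -0.05 for all probe sets, 31 were above 0, 0 passed (all probe sets 0%) and 1 passed unadjusted (all probe sets 6.29%).

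**Figure D3:**
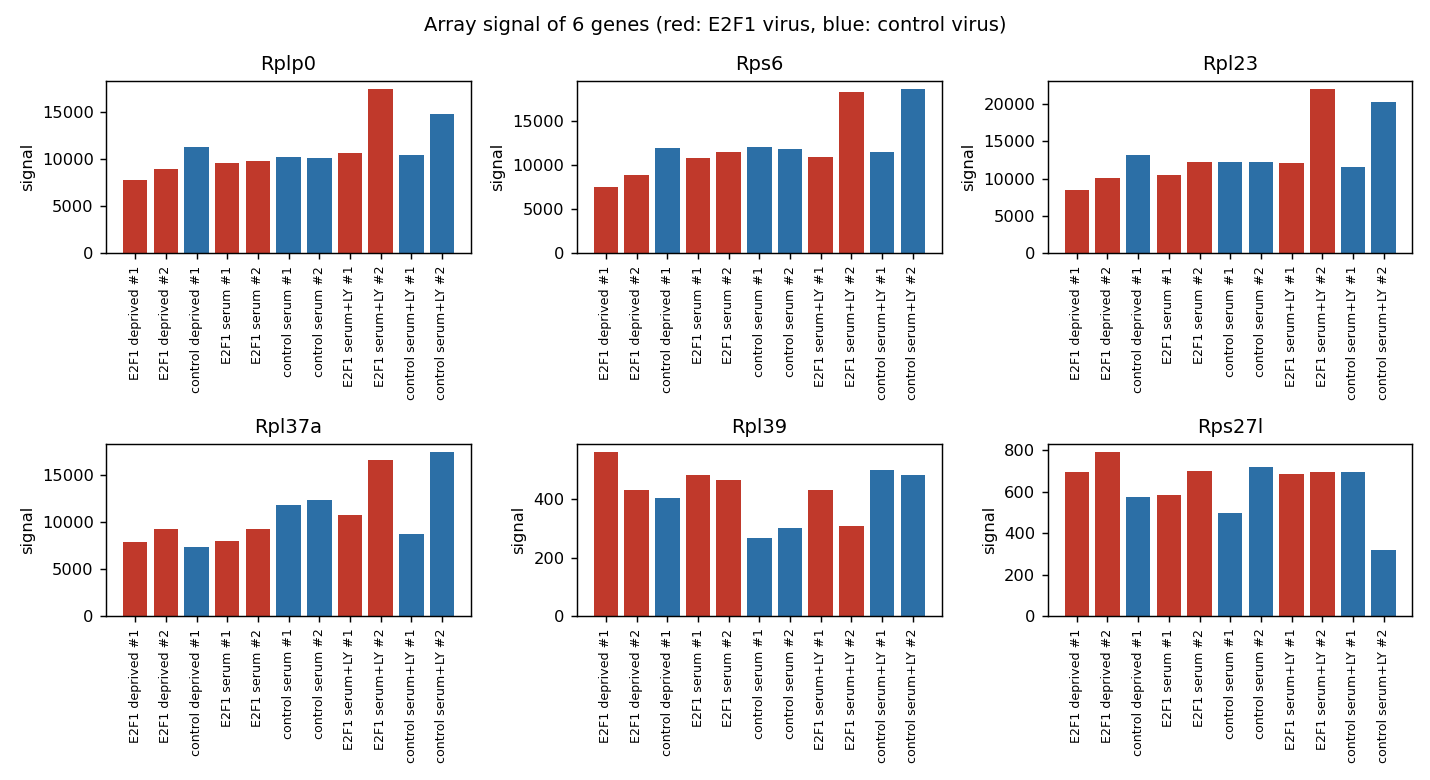
Bars are the deposited array signal of 6 genes on each of the 11 arrays, red for the E2F1 virus and blue for the control virus, with the vertical axis from 0. Rplp0, Rps6, Rpl23 and Rpl37a are highest on the second LY294002 array of each virus, which Rpl39 and Rps27l are not.

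The 2 arrays of each LY294002 group differed. The second minus the first LY294002 array had a median of 0.70 over the 43 genes in E2F1 cells and 0.62 in control virus cells, with 39 genes higher on the second in each. In the other groups this median was 0.16 in deprived E2F1 cells, 0.07 in E2F1 cells in serum and 0.01 in control virus cells in serum. Over all probe sets it was -0.06 and -0.07 between the LY294002 arrays of E2F1 and control virus cells. Rpl23 had 12102 and 21952 in E2F1 cells with LY294002, and 11549 and 20273 in control virus cells with LY294002, and its serum arrays lay between 10530 and 12250. Among genes higher on the second array, Rpl4, a protein of the exit tunnel, had the largest log2 gap in control virus cells, 6209 and 12997, and Rpl23a in E2F1 cells, 3920 and 8748. The 4 genes lower on the second array in control virus cells were Rps27l, with 694 and 319, Rps4y2, Rpl39 and, as read by its dim probe set, Rpl30.

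Without both of these arrays, a repeat chosen after seeing the data, the median change with LY294002 was 0.03 in E2F1 cells, with 23 of 43 genes above 0, and -0.08 in control virus cells, with 12 above 0. In that repeat the average E2F1 change stayed at -0.18, with 37 genes below 0, and the smallest adjusted p of any gene was 0.0506. Of 341 other probe sets with a mean log2 above 12, the second LY294002 array was higher by a median of 0.18 in E2F1 cells and 0.17 in control virus cells, against 0.71 and 0.66 for the 35 ribosomal protein genes of that brightness. The ratio of 3′ to 5′ control probe sets for Gapdh and actin, a measure of RNA integrity and labelling, was 0.90 on a log2 scale on the second E2F1 LY294002 array and 0.26 on the first, and 0.33 and 0.19 on the control virus pair. Its part in the result was not tested. With that ratio as a covariate the median change with LY294002 was -0.10 in E2F1 cells and 0.08 in control virus cells, with 7 and 32 of the 43 genes above 0. With group means in the fit, the covariate's slope comes only from ratio differences within replicate pairs. These were 0.64 in the E2F1 LY294002 pair, 0.14 in the control virus LY294002 pair and -0.05 to -0.01 in the others. The slope therefore rests mostly on 1 pair, and these medians cannot tell the ratio from other differences within it.

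**Figure D4:**
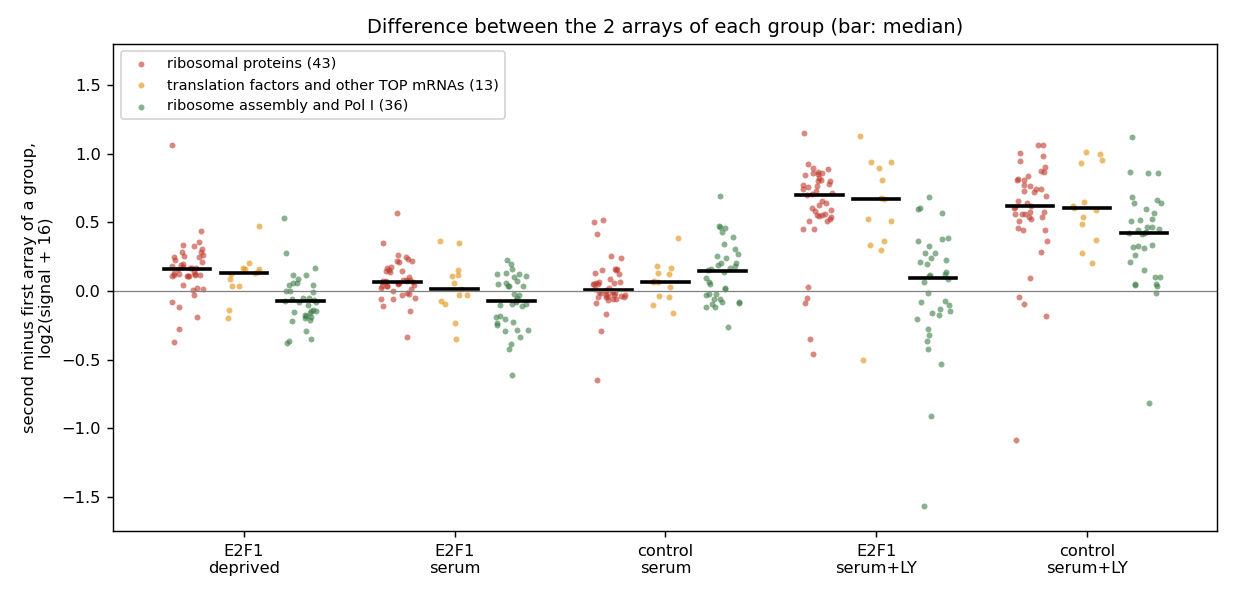
Points are genes, as the second minus the first array of each replicated group on the log2(signal + 16) scale, in red for ribosomal proteins, orange for translation factors and other TOP messenger RNAs and green for ribosome assembly factors, with bars at the medians. The medians of the ribosomal protein and TOP genes lie near 0.6 to 0.7 in the LY294002 groups and near 0 to 0.2 in the others. Single genes spread more widely, to below 0 as well.

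Deprivation medium was compared with serum as well. In E2F1 cells 40 of the 43 genes were lower in deprivation medium, with a median of -0.21, against -0.10 for all probe sets. With arrays centred on their medians 31 genes were lower, with a median of -0.10, against 0.01 for all probe sets, and after quantile normalization 30 were lower, also with a median of -0.10. Without the first deprived E2F1 array the median was -0.14. Both deprived arrays were below both serum arrays for 28 genes and above for 1 (all probe sets 37.0% and 23.1%). By limma 0 passed (all probe sets 0.233%), and at an unadjusted p under 0.05 there was 1 (all probe sets 19.6%). This was Rpl7l1, with 1085 and 1226 in deprivation medium, against 1596 and 1687 in serum, a change of -0.50 ± 0.21 SE (adjusted p = 0.240). The second, dimmer probe set of Rpl7l1 went the other way, with 1025 and 1017 in deprivation medium, against 926 and 849 in serum. Its change was 0.201 ± 0.215 SE, so a fall of this gene rests on 1 of its probe sets. In a limma fit of the deprived and serum E2F1 arrays alone, 8 of the 43 genes passed unadjusted and 0 adjusted. The unadjusted share of all probe sets was not counted there. In control virus cells 22 were lower and 21 higher, with a median of -0.01, against 0.06. None passed by limma (all probe sets 0.240%), nor at an unadjusted p under 0.05 (all probe sets 14.0%), and Rpl13a had the smallest p, with 5971 in deprivation medium, against 9592 and 9318 in serum (log2 change -0.66 ± 0.31 SE, adjusted p = 0.394). The 3′ to 5′ difference was 0.51 to 0.76 on the deprived arrays and 0.12 to 0.19 on the serum arrays. With it as a covariate the medians were -0.63 in E2F1 cells and -0.75 in control virus cells. These medians extend a slope set mostly by the E2F1 LY294002 pair, and the ratio differed with the medium, so they do not measure its part. The comparisons share arrays with each other, so their values are not independent.

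**Figure D5:**
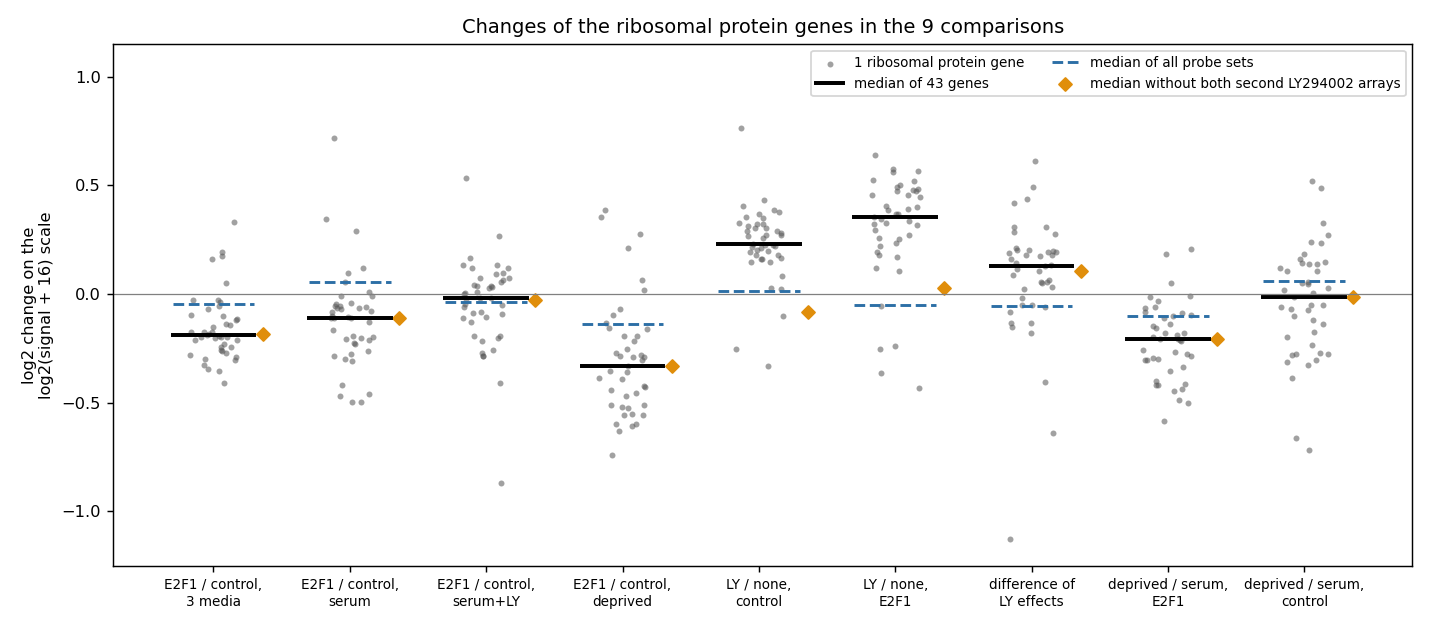
Points are the log2 changes of the 43 genes in each of the 9 comparisons, with the first-named condition over the second, black bars their medians, dashed lines the median of all probe sets and diamonds the gene median without both second LY294002 arrays. The diamonds leave the bars in the LY294002 comparisons, at 0.03 and -0.08 in place of 0.36 and 0.23.

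Genes that serve the ribosome without being part of it were read from lists assembled with earlier results known. Of 36 measured genes for ribosome assembly and RNA polymerase I, 13 passed the test as higher and 0 as lower in E2F1 cells on average, while 2615 of all 15866 probe sets (16.5%) passed, 1464 of them higher. The median of the 36 was 0.20, with 24 above 0, against -0.04 for all probe sets. Gar1, a protein of the particles that convert uridine to pseudouridine in ribosomal RNA, had 704 and 733 in deprived E2F1 cells, against 96.8 in deprived control virus cells. In serum it had 755 and 653 in E2F1 cells, against 140 and 237 in control virus cells, and with LY294002 896 and 966 in E2F1 cells, against 209 and 265 in control virus cells. Every E2F1 array was above every control virus array, and the average change was 2.16 ± 0.15 SE (adjusted p = 0.000479). Nop56, a core protein of the particles that methylate ribosomal RNA, rose by 1.34 ± 0.15 SE (adjusted p = 0.00193), and the methyltransferase fibrillarin, Fbl, by 0.93 ± 0.16 SE (adjusted p = 0.00762). Ubtf, which recruits RNA polymerase I, was higher in E2F1 cells than in control virus cells among the LY294002 arrays, by 1.33 ± 0.22 SE (limma, adjusted p = 0.0202).

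Of 13 measured translation factors and other TOP messenger RNAs, 1 passed the test in E2F1 cells on average (all probe sets 16.5%), and the median was -0.12. This was Hnrnpa1, an RNA-binding protein, which rose by 0.60 ± 0.15 SE (adjusted p = 0.0310). It had 1972 and 1719 in deprived E2F1 cells, against 852 on the single deprived control virus array. In serum it had 2070 and 2234 in E2F1 cells, against 1546 and 2028 in control virus cells. With LY294002 the arrays overlapped, at 2499 and 1756 in E2F1 cells and 1357 and 1760 in control virus cells. For the 13 genes, second LY294002 arrays stood above the first by a median of 0.67 in E2F1 cells (12 of 13) and 0.60 in control virus cells (13 of 13). The assembly genes differed by 0.10 in E2F1 cells (20 of 36) and 0.43 in control virus cells (34 of 36). Rack1, a ribosomal protein of the small subunit with a name outside the symbol rule, differed by 0.82 and 0.65. Of 14 genes for S6 kinases and growth signalling, 1 passed as higher and 1 as lower (all probe sets 16.5%). Rps6ka4, a nuclear kinase of the Msk family, rose by 1.12 ± 0.12 SE (adjusted p = 0.00144), and Eef2k, the kinase that inhibits elongation factor 2, fell by 1.87 ± 0.34 SE (adjusted p = 0.00938). Signals of Eef2k were 15.9 to 107 on E2F1 arrays, some close to the offset of 16, and 81.9 to 388 on control virus arrays. The size of its fall is therefore not well measured.

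Fibroblast markers were mixed: 8 of 13 had a median signal above 200, among them Col1a1 and Vim, while Thy1, Dcn, Lum, Pdgfra and Fap were lower. Of 15 measured markers of other cell types, 8 had medians under 32 and 3, Krt8, Des and Syp, were above 200. The summed signal of the fibroblast markers was 79552 to 103606 on E2F1 arrays and 93058 to 125235 on control virus arrays, and its part in the results was not tested. In bulk samples, fewer cells of a type and less RNA per cell cannot be told apart.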

How the data were processed

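Total RNA from REF52 cells, 6 µg per array per the labels' protocols, was hybridised to Affymetrix rat arrays. The deposited values are signal intensity on a linear scale; per the submitters' processing notes the tools were MAS5 and RMA, with neither version nor role given, and the 2% trimmed mean of the deposited intensity values is 500 on every array. Detection calls were not used here. After 57 control probe sets were set aside, log2(signal + 16) of 15866 probe sets was fitted with limma 3.58.1 in R 4.3.3, with 6 group means over 11 arrays and no further scaling, since array medians spanned 0.2452 against a limit of 0.3. A gene was called at an adjusted p under 0.05 (Benjamini-Hochberg, within each of 9 comparisons); the average over media weighted the 3 media equally. Changes are on the log2(signal + 16) scale, which understates those of dim probe sets. Figures were drawn with matplotlib.

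The members and lists were chosen with earlier results of these data known. Genes named are those with the smallest p-values per comparison, the largest and smallest SD, a fixed set of known members and up to 3 called genes per direction from the other lists; Rpl23a, Rpl4's gap, Rpl35, Rps23 and Rack1 were named after their values were seen. In simulated data for the average comparison over 15866 probe sets, 71% of 2-fold and 98% of 4-fold changes among 200 were recovered, with 11 false calls. The number of arrays limits the precision. Other columns of per-sample values numbered 0.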

Additional observations from a re-analysis of the deposited data

Results flagged for a closer look

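The control probe set for the 5S ribosomal RNA, an RNA of the large subunit that the comparisons do not use, was brighter on 4 E2F1 arrays than on any control virus array. Its signal was 6381 and 359 on the second and first E2F1 arrays with LY294002 and 678 and 359 on the first and second deprived E2F1 arrays. On the E2F1 arrays in serum it was 108 and 141, and on the 5 control virus arrays 98.0 to 152. The second E2F1 LY294002 array, with the highest 5S signal, is also 1 of the 2 arrays on which the ribosomal protein genes were highest, while the second control virus LY294002 array had a 5S signal of 133. The cause was not tested.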

How the results depend on the processing

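No ribosomal protein gene was called in any comparison or alternative run: 227 counts over quantile normalization, centring, offsets of 1 and 64, filtering, a trended prior, smaller fits, averaged probe sets, covariates, left-out arrays and the added repeats, the last chosen after seeing the data. The smallest adjusted p was 0.0506, for the average E2F1 change without both second LY294002 arrays. Of 227 median changes 215 moved by less than 0.3381, the SD of the genes' median between replicate arrays. The LY294002 pairs account for most of that SD, and it exceeds most of the main medians in size. A median could therefore change sign and still count as unmoved, so this count does not measure stability. When the 3′ to 5′ ratio of control probe sets entered as a covariate, the median was -0.43 for E2F1 with LY294002 and -0.04 for E2F1 in deprivation medium. For LY294002 it was -0.10 in E2F1 cells and 0.08 in control virus cells, with -0.21 for the difference of its effects. For deprivation it was -0.63 in E2F1 cells and -0.75 in control virus cells. The covariate's slope rests mostly on the E2F1 LY294002 pair, and the cause was not tested. Leaving out each array in turn gave -0.39 to 0.34 for E2F1 with LY294002, 0.0275 to 0.70 for LY294002 in E2F1 cells, -0.0847 to 0.60 in control virus cells, -0.23 to 0.47 for the difference and -0.31 to -0.06 for the average E2F1 change. Quantile normalization gave 0.14 and 0.07 for LY294002 in E2F1 and control virus cells. Centring on array medians shifted all probe sets by 0.11 in the LY294002 and deprivation comparisons of E2F1 cells. With the probe sets of several symbols, 71 in all, LY294002 gave 0.33 in E2F1 cells and 0.26 in control virus cells. With the replicate block the average E2F1 median was -0.24, and that of E2F1 against control virus in deprivation medium was -0.51. That of deprivation against serum in control virus cells was 0.15, and there were 0 calls. Deviations of same-numbered arrays correlated above 0.1 only between the LY294002 groups (0.30). That correlation cannot show whether the numbers pair the samples. Values of 21 named genes, none called, changed sign in 219 of 3426 cases. Comparisons that need deprived arrays, or the single deprived control virus array, gave no value without them.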
